A study of Mus musculus with 7 samples.

Results

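The 10 genes described here belong to the circadian clock and its output arm, and were read in sorted lung regulatory T (Treg) cells: the PAR bZIP transcription factor genes Hlf, Dbp and Tef, the related repressor gene Nfil3, the period genes Per1, Per2 and Per3, the cryptochrome genes Cry1 and Cry2, and Arntl, which encodes BMAL1. The 10 genes were matched by symbol among 19736 symbols, all 10 were found, and all 10 passed the filter on low values (10 or more in 3 or more of the 7 libraries). The set was selected on measured values, with the difference of Hlf and of other members between the groups already known. The comparison of the groups is therefore given for these genes as values with their spread and with no test, and nothing is supported with it.

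The 7 libraries fall into 3 of CCR6+ and 4 of CCR6- cells, sorted by flow cytometry from digests of whole lung. All cells were Foxp3EGFP+, that is, they carried a green fluorescent reporter of Foxp3, the transcription factor that defines Treg cells, and all mice had the R576 form of the interleukin-4 receptor alpha chain (Il4raR576). CCR6 is a chemokine receptor that binds CCL20. The female mice of both groups, 5 to 7 weeks old, had been injected in the peritoneum with 100 µg of ovalbumin and boosted 2 weeks later, were exposed from day 29 to 1% ovalbumin aerosol for 30 min a day on 3 days, and were killed on day 32. No group without the allele or without allergen is among them. The time of day at which the lungs were taken is not given in the sources used here, nor is it stated whether each library came from a different mouse, so the spread within a group may be technical.

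The mammalian clock is a transcriptional loop. BMAL1 pairs with CLOCK or NPAS2 on E-box sequences and drives the Per and Cry genes, whose proteins return to the nucleus and repress that pair. A further loop runs through the ROR activators and the REV-ERB repressors, which compete at ROR elements of Arntl and Nfil3. The PAR bZIP proteins HLF, DBP and TEF activate output genes through D-boxes, and NFIL3 (E4BP4) represses from the same sites. In T cells NFIL3 is also known as a regulator of cytokine genes.

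Start-site sequences are shown for 4 of the genes. Those of Hlf and Per3 are given because these 2 genes separate the groups in the values that follow, that of Tef because it is a paralog of Hlf that, as deposited, did not, and that of Cry1 because it holds an E-box and an E′-box close together. The sequences are the 250 bases before a RefSeq start site on GRCm38.p6 (mm10), 5′ to 3′ on the strand of the gene, with matches to the motifs searched in capitals (AACGTG in Cry1 is the E′-box CACGTT on the other strand). They lie at chr11:90390918-90391167 (minus strand) for Hlf, chr4:151044666-151044915 (minus strand) for Per3, chr15:81811164-81811413 (plus strand) for Tef and chr10:85185055-85185304 (minus strand) for Cry1.
Hlf: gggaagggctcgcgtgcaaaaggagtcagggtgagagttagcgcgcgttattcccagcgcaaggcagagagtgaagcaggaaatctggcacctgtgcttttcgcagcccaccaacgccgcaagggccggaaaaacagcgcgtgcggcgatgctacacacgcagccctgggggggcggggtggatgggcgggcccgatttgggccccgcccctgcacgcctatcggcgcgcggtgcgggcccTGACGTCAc
Per3: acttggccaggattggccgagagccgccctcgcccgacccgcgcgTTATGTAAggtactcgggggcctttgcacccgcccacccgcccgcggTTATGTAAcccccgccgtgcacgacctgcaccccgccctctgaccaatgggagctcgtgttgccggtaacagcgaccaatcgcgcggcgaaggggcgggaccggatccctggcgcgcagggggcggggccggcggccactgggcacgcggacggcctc
Tef: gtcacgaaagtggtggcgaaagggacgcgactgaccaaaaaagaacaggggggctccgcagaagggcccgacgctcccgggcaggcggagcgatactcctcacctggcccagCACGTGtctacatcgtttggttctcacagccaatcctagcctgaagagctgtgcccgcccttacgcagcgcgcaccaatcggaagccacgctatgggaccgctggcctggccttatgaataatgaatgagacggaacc
Cry1: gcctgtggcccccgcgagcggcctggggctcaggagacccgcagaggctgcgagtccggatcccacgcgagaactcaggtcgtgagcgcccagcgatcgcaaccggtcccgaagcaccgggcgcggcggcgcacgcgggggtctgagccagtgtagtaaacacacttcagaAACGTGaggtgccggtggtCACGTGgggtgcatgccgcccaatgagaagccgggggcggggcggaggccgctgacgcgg

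The motifs were searched on both strands of 300-base windows (250 bases before to 50 after the start) in the RefSeq promoter table, which holds windows for 9 of the 10 genes, all but Per2. These were the E-box CACGTG, the related E′-box CACGTT, the D-box (TTATGTAA or TTACGTAA), the cyclic AMP response element TGACGTCA and the ROR element (TAGGTCA or TGGGTCA). Per3 held TTATGTAA at both -205 to -198 and -158 to -151 from the start, in a set of 32851 windows of which 1.06% hold a D-box. Hlf held the cyclic AMP response element directly before the start, at -9 to -2, a motif present in 1.79% of the windows. Both start sites of Tef, the first of the 2 starts of Per1 and the start of Cry1 held an E-box, as do 7.15% of all windows, and Cry1 and Cry2 held an E′-box, as do 4.68%. The ROR element was found at -12 to -6 of Nfil3 and at 31 to 37 within the transcript of Arntl, against 6.45% of all windows. A match describes letters in a window and does not show that a factor binds there, and no motif was found in the window of Dbp. No 2 of the matches in these genes overlapped.

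The libraries were read first against their labels. The recovered reads numbered 11607780 to 35182288 in CCR6+ and 31083571 to 47261246 in CCR6- libraries. Values are normalised counts, that is, read counts divided by a size factor of the library. Ccr6 stood at 7309, 2750 and 6406 in CCR6+ replicates 1 to 3, against 909, 851, 439 and 271 in CCR6- replicates 1 to 4. Foxp3 stood at 50875, 12206 and 37258 against 39097, 30878, 36186 and 19376. All 8 Treg and T cell markers examined, among them Il2ra, Ctla4 and Cd3e, were above 0 in every library. Their sum was 98795 in CCR6+ replicate 2, against 160604 to 273236 in the other 6 libraries.

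CCR6+ replicate 2 stood apart from the rest, and the differences of the 10 genes are given with and without it. It had the fewest reads, and 1 read is worth 2.27 units there, against 0.677 to 1.02 units in the other libraries. The sum of its 10 epithelial markers, Sftpc among them, was 76992, against 1742 to 11243 in the other 6 libraries. The sum of its 11 endothelial and stromal markers was 61745, against 5544 to 9878, and that of its 8 macrophage and monocyte markers 72945, against 839 to 16220. The 7 dendritic cell markers summed to 1536, 8521 and 1236 in CCR6+ replicates 1 to 3, above the 531 to 825 of the CCR6- libraries, with Clec9a and Siglech listed at 0 in CCR6+ replicate 1. The 7 B cell markers summed to 1368 to 5634 in CCR6+ and 503 to 3663 in CCR6- libraries, and the 6 markers of CD8, NK and gamma-delta T cells that the files hold to 1671 to 2086 and 1639 to 3589. In cells measured in bulk, fewer cells of a type and less RNA per cell cannot be told apart. The part of other cells in the values of the clock genes was not tested. The share of genes at 0 also differed between libraries. It was 2.16% in CCR6+ replicate 2, 6.89% in CCR6+ replicate 3 and 7.09% in CCR6- replicate 3. In the other libraries it was 16.4% to 29.7%. The part of this trait in the values was not tested either.

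**Figure D1:**
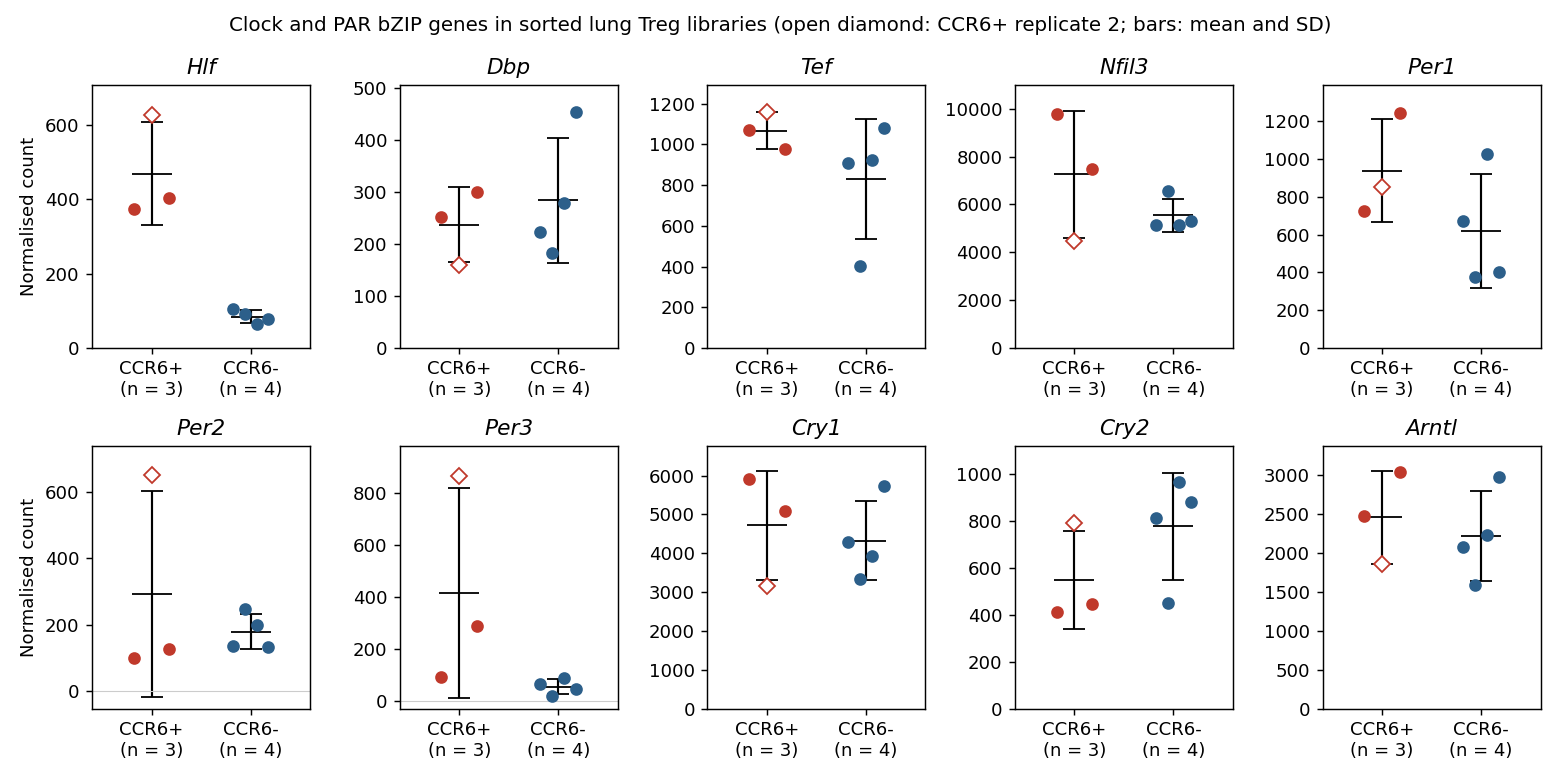
Normalised count of each of the 10 genes in 3 CCR6+ (red) and 4 CCR6- (blue) libraries, with the mean and SD as bars and CCR6+ replicate 2 as an open diamond. Hlf shows 374 to 628 in CCR6+ against 63.5 to 106 in CCR6- libraries, whereas in most other panels the points of the groups interleave.

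Of the PAR bZIP activators, Hlf was the one whose groups were far apart. Hlf, known for its part in haematopoietic stem cells and in clock output, stood at 374, 628 and 404 in CCR6+ replicates 1 to 3, against 106, 90.3, 63.5 and 77.8 in CCR6- replicates 1 to 4. The lowest CCR6+ library was 3.53 times the highest CCR6- library. The means were 469 ± 139 (SD, n = 3) and 84.4 ± 18.1 (SD, n = 4), a ratio of 5.55, and 4.61 without CCR6+ replicate 2. On the log2(value + 1) scale used for all differences, CCR6+ minus CCR6-, this is 2.44 (SE 0.27, limma), and 2.21 (SE 0.25) without that library. The difference kept its sign in each of the 21 alternative settings, between 1.83 with quantile normalization and 2.59 without CCR6+ replicate 1. The groups also stayed apart in each. Most settings could not change that, as they reuse the deposited values or leave a library out. Only a rescaling of the libraries could make the groups overlap. The values rest on 276 to 435 reads per CCR6+ library and 69 to 115 reads per CCR6- library. The 95% exact Poisson intervals, which cover counting error only, end at 127 in the highest CCR6- library and start at 339 in the lowest CCR6+ library. In that lowest library, CCR6+ replicate 1, the stromal markers Pdgfra and Pdgfrb are listed at 0. The endothelial and stromal sum there was 6287, within the CCR6- range of 5544 to 8499.55. Of the markers in that sum, only Kdr was above all CCR6- libraries, at 263 against at most 183. The endothelial markers Cdh5, Cldn5 and Vwf stood at 25.8, 95.4 and 15.5, against at most 62.5, 109 and 158 in CCR6- libraries. The dendritic (1536), epithelial (11243), macrophage (16220) and B cell (5634) sums of CCR6+ replicate 1 were above those of all CCR6- libraries, whose highest were 825, 9347, 14115 and 3663. In CCR6+ replicate 3 the dendritic sum of 1236 and the endothelial and stromal sum of 9878 were above all CCR6- libraries, and the epithelial, macrophage and B cell sums of 3325, 8543 and 1368 were not. Pecam1 alone stood at 5480 and 5976 in CCR6+ replicates 1 and 3, against 5317 to 6648 in CCR6- libraries. It held most of the endothelial and stromal sums there, which therefore tell little of the other markers. The part of other cells in Hlf was not tested. Hlf has 6681 exonic bases on mm10 chromosome 11 from 90336536 to 90390895 (minus strand, protein coding), with no overlap with exons of other annotated genes.

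As deposited, the groups overlapped for Dbp and Tef, the paralogs of Hlf. Dbp, the classical D-box activator of the liver clock, stood at 252, 159 and 300.5 in CCR6+ libraries, against 222, 181, 279 and 453 in CCR6- libraries. The groups overlapped over most of their range, with a log2 difference of -0.22 (SE 0.38), or 0.04 (SE 0.39) without CCR6+ replicate 2. The sign of Dbp also turned with a replicate block, without CCR6- replicate 4 and with arrayWeights, while quantile normalization gave -1.36, so no direction is given. Of its 2993 exonic bases (chromosome 7 from 45705088 to 45710203, plus strand), 18.01% overlap exons of Sphk2 on the other strand, whose reads may not have been separable. Tef stood at 1071, 1158 and 977 against 910, 402, 922 and 1082. Only CCR6- replicate 2 was far below the others, and the log2 difference was 0.46 (SE 0.37), or 0.40 (SE 0.44) without CCR6+ replicate 2, and 0.14 without CCR6- replicate 2. The groups of Tef did not overlap with equal library totals or without CCR6- replicate 4.

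The make-up of the trio also separated the groups. Per exonic kilobase, Hlf made up 20.3%, 31.9% and 21.2% of the summed normalised counts of Hlf, Dbp and Tef in CCR6+ libraries, against 7.71%, 10.8%, 4.32% and 3.88% in CCR6- libraries. Tef was between 40.8% and 56.2% in all 7 libraries. The ratio of Hlf to Dbp per kilobase was 0.665, 1.77 and 0.602 in CCR6+ libraries, against 0.214, 0.223, 0.102 and 0.0769 in CCR6- libraries. A ratio within a library does not depend on its size factor, and these ratios did not overlap either. Since Hlf was in the set for its difference, the ratios carry the same selection and are a description.

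**Figure D2:**
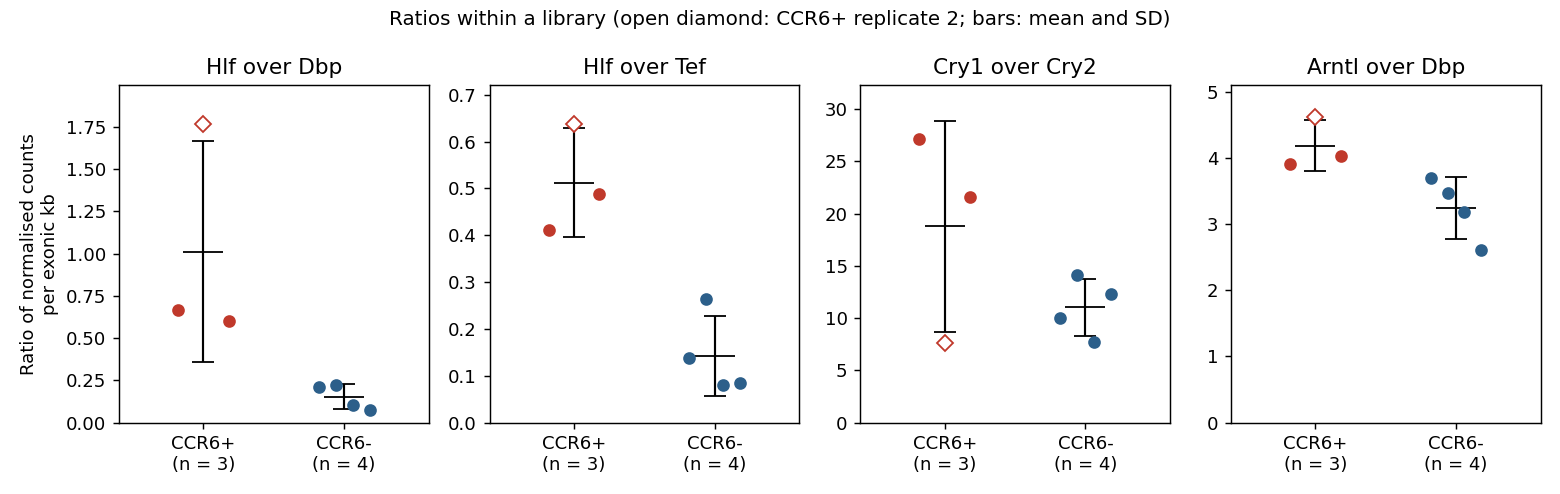
Ratios of normalised counts per exonic kilobase within each library, for 3 CCR6+ (red) and 4 CCR6- (blue) libraries, with mean and SD and CCR6+ replicate 2 as an open diamond. Hlf over Dbp and Hlf over Tef do not overlap between the groups, and Cry1 over Cry2 is highest in CCR6+ replicates 1 and 3, at 27.1 and 21.6.

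Nfil3, the D-box repressor, was the most abundant of the 10 per exonic kilobase in every library. It stood at 9791, 4486 and 7472 in CCR6+ replicates 1 to 3, against 5148, 6558, 5128 and 5314 in CCR6- libraries. CCR6+ replicates 1 and 3 lay above all CCR6- libraries and CCR6+ replicate 2 below all of them. The log2 difference was therefore 0.32 (SE 0.29) with all libraries, and 0.64 (SE 0.21) without CCR6+ replicate 2, where the groups did not overlap. That library also had the lowest sum of Treg and T cell markers. The part of this in its Nfil3 value was not tested. The ratio of Nfil3 to the summed PAR bZIP activators per kilobase was 17.5, 7.52 and 12.9 in CCR6+ libraries, against 12.3, 25.8, 11.5 and 8.72 in CCR6- libraries, and overlapped. Nfil3 lies on chromosome 13 from 52967209 to 52981073 (minus strand), with 2026 exonic bases.

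The 3 period genes, which encode the inhibitory partners of the cryptochromes, each behaved differently. Per1, which is also an early response gene to hormones and cyclic AMP, stood at 723, 851 and 1242 in CCR6+ libraries, against 672, 373, 1027 and 403 in CCR6- libraries. Of the CCR6- libraries replicate 3 reached into the CCR6+ range, and the log2 difference was 0.69 (SE 0.42), or 0.74 (SE 0.50) without CCR6+ replicate 2. It was positive in all 21 alternative settings, from 0.47 without CCR6+ replicate 3 to 0.97 without CCR6- replicate 3, where the groups did not overlap.

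Per2, a core period gene, stood at 97.1, 653 and 126 in CCR6+ replicates 1 to 3, against 136, 246, 199 and 133 in CCR6- libraries. CCR6+ replicate 2 was far above all others, while the other 2 CCR6+ libraries were the lowest of the 7. The log2 difference of 0.21 (SE 0.69) accordingly became -0.64 (SE 0.32) without that library, and the remaining groups did not overlap. It was also negative with quantile normalization and with arrayWeights. The closest values of these groups, in CCR6+ replicate 3 and CCR6- replicate 4, rest on 124 and 197 reads. Their 95% exact Poisson intervals of 105 to 150 and 115 to 153 overlap, so this gap was not detectable at this depth.

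Per3, a period gene that is dispensable for the core loop, stood at 93.6, 864 and 288 in CCR6+ libraries, against 65.3, 19.9, 90.1 and 48.7 in CCR6- libraries. The groups did not overlap, but CCR6+ replicate 1 exceeded the highest CCR6- library by a factor of only 1.04. These 2 values rest on 109 and 98 reads, and their 95% exact Poisson intervals of 76.9 to 113 and 73.2 to 110 overlap. The log2 difference was 2.52 (SE 0.85), or 1.73 (SE 0.73) without CCR6+ replicate 2, and it was positive in all 21 alternative settings. They did overlap once library totals were made equal, and under quantile normalization. The order of the CCR6+ libraries in Per3, with replicate 2 highest and replicate 1 lowest, was also that of the endothelial and stromal marker sum, at 61745, 9878 and 6287 in replicates 2, 3 and 1. In CCR6- replicates 1 to 4 that sum was 7555, 7855, 8499.55 and 5544, so replicate 3 was highest in both, while replicate 2, lowest in Per3, had the second highest sum. The sum in CCR6+ replicate 1 was below that of 3 of the 4 CCR6- libraries, and its Per3 value was above all of them. Pecam1 held most of that sum in every library but CCR6+ replicate 2. CCR6+ replicates 2 and 3 and CCR6- replicate 3, highest in Per3 within their groups, also had the fewest genes at 0 (2.16%, 6.89% and 7.09%). CCR6+ replicate 1, at 27.2%, was nevertheless above all CCR6- libraries in Per3. CCR6- replicate 4, at 29.7%, was above CCR6- replicate 2, at 23.6%. The part of endothelial and stromal cells, or of the share of genes at 0, in Per3 was not tested.

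The cryptochromes, the direct repressors of the BMAL1 and CLOCK pair, differed from each other. Cry1 stood at 5900, 3164 and 5083 in CCR6+ libraries, against 4295, 3342, 3932 and 5723 in CCR6- libraries. CCR6+ replicate 2 was the lowest of the 7, and the log2 difference was 0.11 (SE 0.30), or 0.37 (SE 0.26) without it, with the sign turned without CCR6+ replicate 1 or without CCR6- replicate 2. Cry2 stood at 412, 789 and 445 against 812, 449, 965 and 883. CCR6+ replicates 1 and 3 were the lowest of all 7 libraries, with CCR6- replicate 2 only just above them. The 95% exact Poisson intervals of 404 to 488 in CCR6+ replicate 3 and 412 to 489 in CCR6- replicate 2 overlap. The log2 difference was -0.51 (SE 0.37), or -0.80 (SE 0.35) without CCR6+ replicate 2, where the groups did not overlap, and it was negative in all 21 alternative settings, from -0.88 to -0.33. Without CCR6- replicate 2 it was -0.75, again with no overlap. The ratio of Cry1 to Cry2 per kilobase was 27.1, 7.59 and 21.6 in CCR6+ libraries, against 10.003, 14.1, 7.71 and 12.3 in CCR6- libraries, so 2 of the 3 CCR6+ libraries lay above every CCR6- library. Of the exonic bases of Cry2, 4.67% overlap an antisense transcript, as do 2.45% of those of Tef and 0.439% of those of Arntl.

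Arntl stood at 2475, 1852 and 3041 in CCR6+ libraries, against 2069, 1586, 2231 and 2979 in CCR6- libraries. The groups interleaved, with a log2 difference of 0.16 (SE 0.28), or 0.34 (SE 0.29) without CCR6+ replicate 2, and the sign turned without CCR6+ replicate 3. Among the 10 genes, Arntl and Cry1 had the most similar profile over the 7 libraries, with a root mean square difference of 0.17 between their centred log2 values. Dbp was the next closest to Arntl, at 0.24. The ratio of Arntl to Dbp per kilobase was 3.91, 4.63 and 4.03 in CCR6+ libraries, against 3.70, 3.48, 3.19 and 2.61 in CCR6- libraries, and did not overlap. The closest ratios, 3.91 and 3.70, rest on 293 and 235 reads of Dbp. The 95% exact Poisson intervals of Dbp there were 224 to 282 and 195 to 253. Counting error and the overlap of Dbp with Sphk2 limit what this narrow gap shows.

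**Figure D3:**
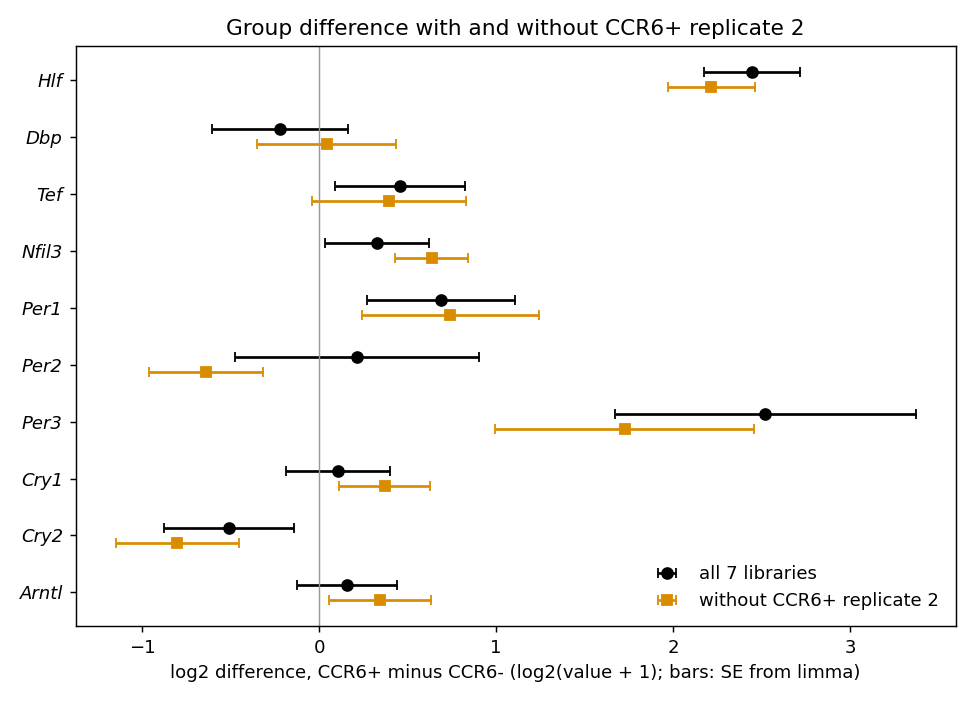
Log2 difference, CCR6+ minus CCR6-, of each gene with its SE from limma, from all 7 libraries (black circles) and without CCR6+ replicate 2 (orange squares). Hlf lies at 2.44 and 2.21 and Per3 at 2.52 and 1.73, and Per2 stands at 0.21 with that library and -0.64 without it. Dbp lies at -0.22 and 0.04, Cry1 at 0.11 and 0.37, and Arntl at 0.16 and 0.34.

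Across the 10 genes, CCR6+ replicate 2 had the highest of the 7 values for 4 (Hlf, Tef, Per2 and Per3) and the lowest for 3 (Dbp, Nfil3 and Cry1). The groups did not overlap for 2 genes, both higher in CCR6+ cells, where this held for 7.96% of the 14582 genes tested in that direction. It held for 5.53% of them in the other direction and for none of the 10. Without CCR6+ replicate 2 the groups did not overlap for Hlf, Per3 and Nfil3 (higher) and for Per2 and Cry2 (lower), where this held for 10.9% and 9.43% of 13272 genes tested. As the set was chosen with this comparison known, nothing is read from these counts. The median log2 difference of the 10 genes was 0.27, against 0.097 over all genes tested, and 0.38 against 0.0012 without CCR6+ replicate 2. Of the 10, 8 were positive and 2 negative in both, where 56.9% of all genes were positive, and 50.1% without CCR6+ replicate 2. The negative genes were not the same. They were Dbp and Cry2 with all libraries, and Per2 and Cry2 without CCR6+ replicate 2. Over all 14582 genes, limma called 0 (0%) in either direction at an adjusted p of 0.05, with 1198 higher (8.22%) and 342 lower (2.35%) at an unadjusted p under 0.05. Without CCR6+ replicate 2 it again called 0, with 635 higher (4.78%) and 370 lower (2.79%) at an unadjusted p under 0.05. On the recovered reads, edgeR called 2 genes and DESeq2 679.

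Ordered by mean normalised count per exonic kilobase, the levels in CCR6+ libraries (n = 3) were 3578 ± 1313 for Nfil3, 1412 ± 420 for Cry1, 326 ± 79.1 for Arntl, 167 ± 48.0 for Per1 and 136 ± 11.5 for Tef. Below these came Cry2 at 86.8 ± 33.1, Dbp at 79.2 ± 24.0, Hlf at 70.1 ± 20.8, Per2 at 49.9 ± 53.4 and Per3 at 43.2 ± 41.7. In CCR6- libraries (n = 4) the order was Nfil3 at 2733 ± 338, Cry1 at 1294 ± 303, Arntl at 295 ± 76.8, Cry2 at 123 ± 36.0, Per1 at 110 ± 53.9 and Tef at 105 ± 37.5. Dbp at 94.9 ± 40.0, Per2 at 30.5 ± 9.25, Hlf at 12.6 ± 2.71 and Per3 at 5.83 ± 3.07 followed. The 3 highest genes were each separated from the next by more than their SD in both groups. The neighbours from Cry2 to Dbp in CCR6- libraries, and Per1 and Tef as well as all neighbours from Cry2 to Per3 in CCR6+ libraries, lay within 1 SD of each other. Hlf stood close to Dbp in CCR6+ libraries and well below it in CCR6- libraries. The exonic lengths are those of GENCODE mouse release M21, and the annotation behind the authors' counts is not given in the sources used here.

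**Figure D4:**
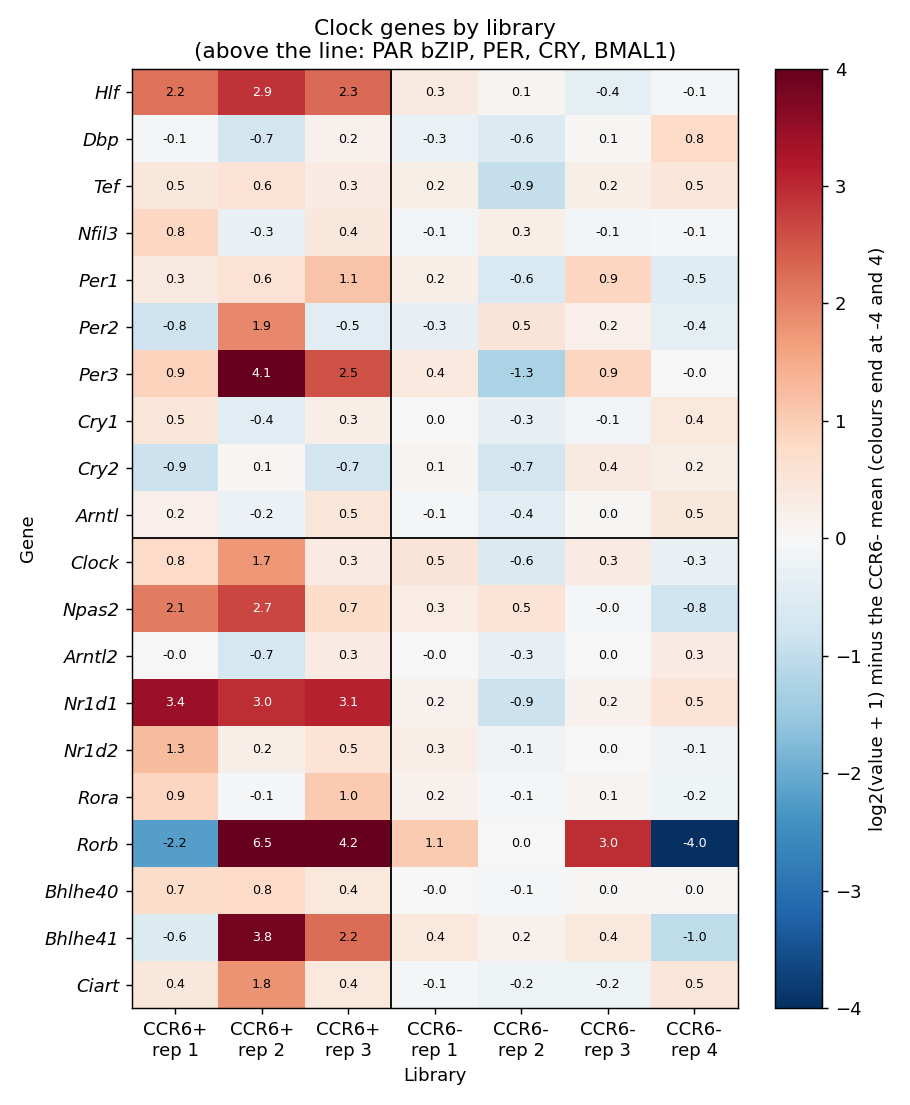
Log2(value + 1) of each clock gene minus its mean over the CCR6- libraries (colour and printed value), in 3 CCR6+ (left) and 4 CCR6- (right) libraries, with the 10 genes described above the line and other core clock genes below it. Hlf, Nr1d1, Npas2, Bhlhe40 and, by a small margin in replicate 1, Per3 are above every CCR6- library in all 3 CCR6+ libraries. Hlf, Tef, Per2, Per3, Clock, Npas2, Rorb, Bhlhe40, Bhlhe41 and Ciart are highest in CCR6+ replicate 2.

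The rest of the core clock was examined as a list of 11 further genes, tested by limma over all genes. None of the 11 was called at an adjusted p of 0.05, 10 had positive and 1 a negative log2 difference, and the median was 0.94, against 0.097 over all genes. Without CCR6+ replicate 2 all 11 were positive with a median of 0.89, and again none was called. The list was drawn up with the difference of Nr1d1 already known, and Nr1d1 overlaps Thra on the other strand. Nr1d1, for the repressor REV-ERBα, stood at 1369, 987 and 1075 in CCR6+ libraries, against 141, 68.8, 143 and 183 in CCR6- libraries, a log2 difference of 3.16 (SE 0.36, limma adjusted p = 0.169), or 3.25 without CCR6+ replicate 2 (adjusted p = 0.250). Nr1d2, for REV-ERBβ, stood at 4872, 2393 and 2961 against 2434, 1869, 2071 and 1860, and overlapped through CCR6+ replicate 2 (log2 difference 0.67, SE 0.28, limma adjusted p = 0.471, or 0.89 and 0.562 without that library). Bhlhe40, whose protein DEC1 competes at E-boxes, stood at 10938, 11142 and 8755 against 6481, 6222, 6752 and 6728 (log2 difference 0.64, SE 0.16, limma adjusted p = 0.415). Its groups did not overlap, as for 7.96% of all genes tested in that direction. Bhlhe40 did not pass, and its difference was 0.58 without CCR6+ replicate 2.

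Genes that act on the PER and CRY proteins, such as casein kinases and F-box ubiquitin ligases, were mixed. Of 16 tested, none was called, 7 were positive and 9 negative, and the median log2 difference was -0.035, or -0.037 without CCR6+ replicate 2 (8 positive and 8 negative). Timeless, known from DNA replication as well as from the clock, had the smallest p, at 1290, 1617 and 1278 in CCR6+ libraries against 1937, 1733, 2086 and 1590 in CCR6- libraries (log2 difference -0.40, SE 0.18, limma adjusted p = 0.480). Its difference was -0.51 without CCR6+ replicate 2, where its groups did not overlap. Wdr5 and Nono, which encode partners of PER1 complexes, had differences of -0.27 and -0.26, with adjusted p values from limma of 0.518 and 0.531. For both, every CCR6+ library lay below every CCR6- library, and without CCR6+ replicate 2 the differences were -0.29 and -0.17. Over all genes tested, the groups were apart in this direction for 5.53%, and for 9.43% without CCR6+ replicate 2. Nothing is read from the separation of these genes.

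Known PAR bZIP targets of mouse liver and brain were read next. Of 6 such genes, 4 passed the filter and none was called. Of the 4, 3 were positive, and their median log2 difference was 0.48 with CCR6+ replicate 2 and 0.19 without it. Alas1, the first enzyme of haem synthesis, stood at 1238, 2270 and 1211 in CCR6+ libraries, against 1131, 952, 1023 and 1111 in CCR6- libraries (log2 difference 0.52, SE 0.26, limma adjusted p = 0.501). The groups did not overlap for Alas1, as for 7.96% of all genes tested in that direction. The difference was 0.22 without CCR6+ replicate 2. Pdxk, for pyridoxal kinase, had a log2 difference of 0.45 (SE 0.30), or 0.16 without that library. Cyp7a1, a liver enzyme gene of bile acid synthesis, had 10.3, 541 and 129 in CCR6+ libraries, against 16.1, 2.49, 42.3 and 0 in CCR6- libraries. Its highest values were in CCR6+ replicates 2 and 3 and CCR6- replicate 3, the libraries with the fewest genes at 0. The part of that trait in its positive difference was not tested. Nr1i3 and Cyp2a5 were below the filter, with at most 45.5 in CCR6+ replicate 2.

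Since Per1 also answers to early response and glucocorticoid signals, both groups of genes were read beside it. Of 16 immediate early genes none was called, with 10 positive and 6 negative and a median log2 difference of 0.14. Leaving out CCR6+ replicate 2 gave 9 positive and 7 negative genes and a median of 0.024. Fosl2 stood at 2794, 1358 and 1506 in CCR6+ libraries, against 1279, 948, 895 and 914 in CCR6- libraries (log2 difference 0.84, SE 0.30, limma adjusted p = 0.455, or 1.04 and 0.579 without CCR6+ replicate 2). Atf3 had a log2 difference of 1.66 with CCR6+ replicate 2 and 0.88 without it. For Ier3 these were 2.78 and 1.80. Of 12 glucocorticoid-induced genes, 11 were tested and none was called, with 8 positive and 3 negative and a median of 0.10. Leaving out that library gave 7 positive and 4 negative genes and a median of 0.25, and the groups did not overlap for 3 of the 11, against 1 with it. Over all genes tested this held for 10.9% (higher) and 9.43% (lower) without that library, and for 7.96% and 5.53% with it. Nothing is read from these counts. Cdkn1a, Il1r2 and Tsc22d3 (GILZ) had the smallest p, with log2 differences of 1.05, 0.90 and -0.86 and limma adjusted p values of 0.449, 0.472 and 0.494. When CCR6+ replicate 2 was left out these differences were 0.79, 1.23 and -1.01, and the groups of Il1r2 then did not overlap. Tsc22d3, a widely used readout of glucocorticoid action, stood at 8965, 15470 and 14644 in CCR6+ libraries, against 22278, 12216, 27668 and 37576 in CCR6- libraries.

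Other genes with a profile like that of the 3 members of largest difference were found by the root mean square difference of centred log2 values over the 7 libraries, among 12004 genes with a mean of at least 50. For Hlf the nearest were Lilr4b at 0.35, Dse at 0.36 and Rab11fip5 at 0.40, where the median gene was at 1.33. For Per3 they were Amph at 0.30, F8 at 0.33 and Peli2 at 0.36, where the median gene was at 1.69. Each of these 3 had its highest value, 250 to 339, in CCR6+ replicate 2. For Per1 they were Plppr3 at 0.093, Rasd1 at 0.17 and Nfat5 at 0.21, where the median gene was at 0.75. Without CCR6+ replicate 2 the distances of these 9 genes were between 0.075 and 0.39, but most ranks fell. Lilr4b, Dse and Rab11fip5 then ranked 10, 6 and 14 for Hlf, and Amph, F8 and Peli2 ranked 4, 5 and 7 for Per3. Plppr3, Rasd1 and Nfat5 ranked 1, 3 and 4 for Per1. None of the named genes was then among the 3 nearest to Hlf or Per3. Plppr3 stood at 124, 171 and 234 in CCR6+ libraries, against 111, 68.8, 175 and 74.4 in CCR6- libraries, and was the nearest to Per1 in both cases.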

How the data were processed

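RNA of sorted Treg cells was made into cDNA with the SMART-Seq v4 kit for ultra low input and into libraries with a KAPA Hyper Prep kit, per the labels' protocols, which do not mention strand. The deposited signal of a gene is its read count after the authors' division by a size factor of the library. This reading rests on the values, which are whole multiples of 1 step per library, within 0.001 reads for 100% of values. STAR 2.5.1b, HTSeq 0.6.1p1, DESeq2 1.6.3 and mm10 are listed per the submitters' processing notes, with no role or order. Neither the annotation nor any filter or strand setting is given in the sources used here.

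The 14582 genes that reached 10 in 3 or more libraries were fitted with limma 3.58.1 in R 4.3.3, by group alone, on log2(value + 1), with two-sided p values and Benjamini-Hochberg adjustment over these genes. This scale understates changes of low genes. Alternatives were pseudocounts of 0.5 and 8, no filter, a mean of at least 100, equal totals, TMM, quantile normalization, arrayWeights, limma-trend with robust moderation, a replicate block, each library left out in turn, and the recovered reads tested with edgeR 4.0.16 or DESeq2 1.42.0 (also without CCR6+ replicate 2). No filter, a mean of at least 100 and limma-trend leave the log2 difference of a gene unchanged by design. The settings are therefore not separate checks of it. The fits were also run on simulated counts with planted group differences, on which DESeq2 made a larger share of false calls than its threshold allows. There limma missed part of the planted differences, so a gene that limma did not call may still differ. Motifs were matched exactly in the RefSeq promoter table (GRCm38.p6), and positions are those of GENCODE M21 on mm10, 1-based.

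The members and lists were chosen with earlier results of these data known. Named beside the 10 genes were, per list, those called (up to 8) or else the 3 of smallest p, Nr1d1 and Nr1d2, the 3 nearest genes of the 3 members of largest difference, and Ccr6 and Foxp3. A further gene that this rule names is not reported here. No 2 libraries of a group agreed within sampling noise (chi-square per degree of freedom of 29.1 or more).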

Additional observations from a re-analysis of the deposited data

Results flagged for a closer look

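Values of the 4 CCR6- libraries were screened for 1 library far from the other 3, in 52 sets of values (the 10 genes, the other named genes, ratios, marker sums and depth). Of these, 4 sets held such a library, where chance gives about 5% of sets. The 3 CCR6+ libraries are too few for this screen. Nfil3 stood at 6558 in CCR6- replicate 2, against 5128 to 5314 in the other CCR6- libraries. Fosl2 stood at 1279 in CCR6- replicate 1, against 895 to 948. The sum of the Treg and T cell markers was 160604 in CCR6- replicate 4, against 204871 to 211139, and the sum of CD8, NK and gamma-delta T cell markers was 3589 in CCR6- replicate 2, against 1639 to 1965. No explanation was tested for any of these.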

How the results depend on the processing

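The count of genes called over all genes was 0 in the limma fit, with no filter, with equal totals, with a replicate block and without any 1 library (range 0 to 0). It was 1 with a pseudocount of 0.5 and with TMM scaling, 2 with a pseudocount of 8, with a mean of at least 100, with edgeR and with edgeR without CCR6+ replicate 2, 4 with quantile normalization, 10 with limma-trend, 679 with DESeq2, 181 with DESeq2 without CCR6+ replicate 2, and 2486 with arrayWeights, whose estimate of the weights did not reach its convergence tolerance. Of the 10 clock genes, 2 had groups that do not overlap. With equal totals the count was also 2, with Tef in place of Per3. The count was 1 with quantile normalization, 5 with edgeR and DESeq2 without CCR6+ replicate 2, and between 2 and 5 with 1 library left out, the 5 without CCR6+ replicate 2. The median log2 difference of the 10 moved by less than the spread between libraries, from 0.17 with TMM scaling to 0.40 with arrayWeights. Of the other core clock genes, 0 were called in the limma fit, 1 with a mean of at least 100, with edgeR and with edgeR without CCR6+ replicate 2, 2 with limma-trend, 4 with DESeq2, and 5 with arrayWeights and with DESeq2 without CCR6+ replicate 2. Of the 16 clock modifiers 3 were called with arrayWeights, which called 2486 of all 14582 genes. Of the 16 immediate early genes 1 was called with arrayWeights and with DESeq2 with and without CCR6+ replicate 2. DESeq2 called 679 of all 14582 genes with that library and 181 of 13272 without it. Of the 11 glucocorticoid-induced genes tested 2 were called with arrayWeights and 1 with DESeq2 with and without that library. Nothing is read from these counts of list members, and the cause of their changes between settings was not tested. The median over all genes moved by -0.18 with quantile normalization, 0.33 with no filter and -0.14 with a mean of at least 100, and by under 0.1 with the other scalings.

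Foxp3 had a log2 difference of -0.090 that turned to 0.10 with quantile normalization, 0.063 with arrayWeights, 0.048 with edgeR, 0.089 with DESeq2, 0.52 without CCR6+ replicate 2, 0.032 without CCR6- replicate 1 (between -0.51 and 0.52 with 1 library left out), and 0.49 and 0.50 with edgeR and DESeq2 without CCR6+ replicate 2. Deviations from the group mean correlated at -0.13, -0.11 and 0.34 between same-numbered libraries, and from -0.76 to 0.69 between differently numbered ones. As differently numbered libraries reached larger values, this cannot show or exclude shared animals. The numbers were not taken to pair the libraries. The replicate block called 0 genes. Overlap of the groups was not assessed under it, since it leaves the values of all libraries as they are. Its log2 differences are those without CCR6- replicate 4, which has no partner. Without that library 3 of the 10 clock genes did not overlap. For Per3 and Per2 the depth of 24 to 380 and 113 to 297 reads limits what small gaps between libraries show.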
